A study of Mus musculus with 2 samples.

Results

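The genes described here are 34 mouse genes of amino acid metabolism and transport, taken by symbol from a given list and all found among the 43346 gene rows of the deposited tables. They comprise 22 enzymes and 12 transporter subunits. The RNA came from the pancreas of 1 mouse, a female of the inbred strain C57BL/6J aged 10 weeks, with no treatment or engineered allele named in the labels. Poly(A)-selected RNA was sequenced in 2 technical replicate libraries, called replicate 1 and replicate 2, of 1 biological sample. Both libraries form 1 group, so the data hold no comparison between conditions, and the only comparison is of 1 library with the other. The spread between them holds no variation between animals.

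The exocrine pancreas makes large amounts of secreted protein and is known for a high demand for amino acids. Serine is built from a glycolytic intermediate by 3 enzymes in turn, and serine hydroxymethyltransferases then pass a carbon unit from serine to folate and leave glycine. Methionine is turned into S-adenosylmethionine, the methyl donor of the cell, whose spent form is either remade into methionine or drained into cysteine through cystathionine. Amino acid shortage is known to act through the kinase GCN2 and the transcription factor ATF4, which raises the transcription of genes such as Asns.

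ATF4 binds, as a dimer with a C/EBP protein, a composite sequence called the amino acid response element. RefSeq promoter windows on GRCm38.p6, running from 250 bases before to 50 after a transcription start, were found for 27 of the 34 genes, as 31 windows. They were searched on both strands for the 8 letters TGATGNAA, where N is any base and which read TTNCATCA on the other strand, with no other motif searched. The letters occurred in 3 of the 31 windows, or 9.68%, and in 3.97% of all 32851 windows of the table. The 3 windows are shown because they are the places in these promoters where the letters occur, printed on the strand of the gene with the match in capitals. That of Got1 lies at chr19:43524689-43524718 on the minus strand, reads in the other orientation and runs from -102 to -95 relative to the start. That of Asns lies at chr6:7693214-7693243 on the minus strand, from -23 to -16 of the RefSeq start. GENCODE M21 places the start of Asns at 7693254, so by that annotation this window lies inside the gene. That of Pycr1 lies at chr11:120643833-120643862 on the minus strand, from -103 to -96.
Got1: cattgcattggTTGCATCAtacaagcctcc
Asns: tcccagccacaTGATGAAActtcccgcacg
Pycr1: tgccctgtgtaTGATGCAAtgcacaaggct
A match describes the letters of the window and is not evidence of binding. The levels of these 3 genes differed widely, from 4.12 TPM for Got1 to 47.6 TPM for Asns by the mean of the libraries.

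Levels are given in TPM, the deposited unit, which states how large a part of a library's transcripts a gene makes up after correction for transcript length and can be compared between genes of a library. Of the 34 genes, 31 reached 1 TPM in both libraries. Those that did not were Shmt1, Bcat1 and Slc3a1. Together the 34 genes held 0.0745% of all TPM in replicate 1 and 0.0643% in replicate 2 (mean 0.0694% ± 0.00719, SD, n = 2). Their median was 14.9 TPM in replicate 1 and 12.9 TPM in replicate 2, against 4.98 and 4.14 TPM over the 10332 genes that reached 1 TPM in both libraries. Of the 34, 12 lay among the top 10% of those genes by mean TPM, 25 at or above their middle rank and 6 below it. The 5 most abundant of the 34 held 42.5% of the TPM of all 34 in replicate 1 and 42.8% in replicate 2.

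The libraries differ in what else they hold. Replicate 1 held 9441559 expected counts, of which 14005 fell on the 34 genes, and replicate 2 held 9797569, of which 10391 did. The noncoding RNA Gm42418 took 16.9% of counts in replicate 1 and 42.8% in replicate 2, and genes of the mitochondrial genome took 17.6% and 3.17%. A TPM is a share of the library, so these shares touch every comparison of TPM between the libraries. All 8 acinar markers reached 1 TPM in both libraries, with sums of 81168 and 93661 TPM, and so did 6 of 7 beta cell and 5 of 6 duct markers. The alpha cell markers, of which 5 of 6 reached 1 TPM, summed to 4359 TPM in replicate 1 and 1667 TPM in replicate 2. Of 10 hepatocyte markers 4 reached 1 TPM, among them Ass1 and Cyp2e1, while Alb lay at 0.610 and 0.560 TPM and Cps1 at 0 and 0.0700 TPM. None of 5 kidney tubule markers reached 1 TPM, and 3 of them had 0 counts in both libraries. Lrp2, another of the 5, had 92 and 67 counts, at 0.69 and 0.67 TPM. In bulk tissue, fewer cells of a type and less RNA per cell cannot be told apart, and the part of these cell types in the levels below was not tested.

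**Figure D1:**
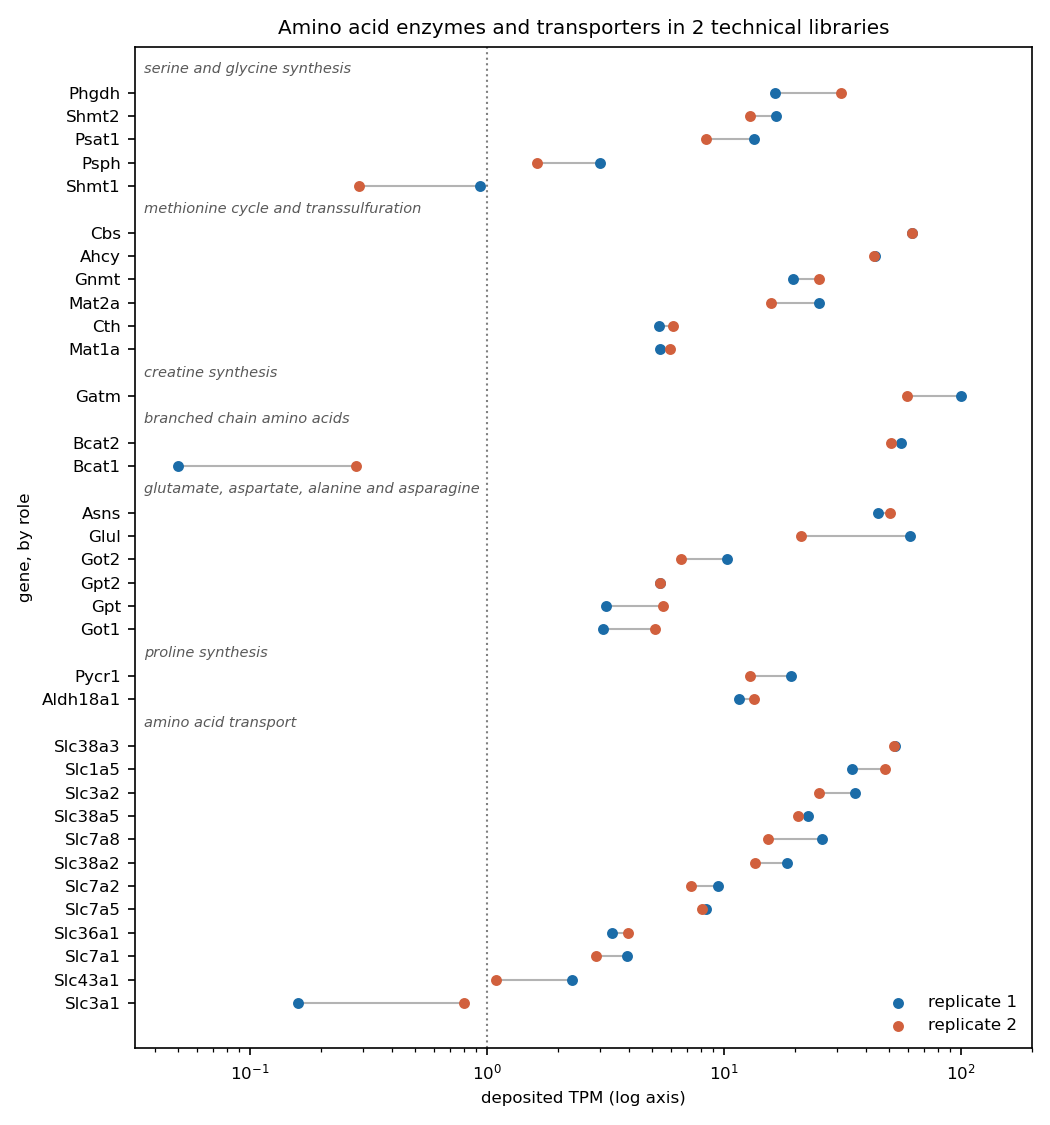
Deposited TPM of the 34 genes on a log axis, grouped by role, with 1 point for each technical library and a line joining the 2 points of a gene. The dotted line marks 1 TPM, and Gatm, Cbs, Bcat2 and Slc38a3 lie at or above 50 TPM in both libraries while Bcat1, Slc3a1 and Shmt1 lie below the line.

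The serine pathway was present at uneven levels along its steps. Phgdh, the 3-phosphoglycerate dehydrogenase that opens the pathway (chromosome 3, 98313170 to 98339990, GRCm38), was at 16.5 TPM in replicate 1 and 31.3 TPM in replicate 2. Psat1, the aminotransferase of the next step, was at 13.4 and 8.43 TPM. Psph, the phosphatase that releases serine, was at 3.02 and 1.63 TPM. Psph was thus the lowest of the 3 synthesis genes in both libraries, while Phgdh was 1.23 times Psat1 in replicate 1 and 3.71 times in replicate 2. Psph shares 10.4% of its exon bases with the oppositely oriented Cct6a, which held 96 and 68 counts against 19 and 17 for Psph. Whether reads were counted by strand is not known here.

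Of the serine hydroxymethyltransferase pair, the mitochondrial Shmt2 was at 16.7 and 12.9 TPM and the cytosolic Shmt1 at 0.940 and 0.290 TPM. Shmt1 had 9 and 3 counts, against 312 and 209 for Shmt2, so Shmt2 was the more abundant of the pair in both libraries.

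The methionine cycle and transsulfuration genes all reached 1 TPM in both libraries. Cbs, cystathionine beta-synthase (chromosome 17, 31608894 to 31637238), was at 62.5 TPM in each library (62.5 ± 0.0566, SD, n = 2). Cth, the next enzyme on the route to cysteine, was at 5.33 and 6.13 TPM. The level of Cbs was 11.7 times that of Cth in replicate 1 and 10.2 times in replicate 2. The main transcript of Cth is a short entry of 675 bases, on which these ratios of TPM depend. By counts Cbs had 979 and 943 and Cth 48 in each library. Ahcy, which hydrolyses S-adenosylhomocysteine, was at 43.3 and 43.2 TPM. Its deposited posterior SD of the count was the highest of the 34, at 5.22 in replicate 1 against 882 counts, and 30 of the 34 genes had a posterior SD of 0 in both libraries.

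Gnmt, the glycine N-methyltransferase that consumes S-adenosylmethionine and is known as an abundant enzyme of liver and pancreas, was at 19.6 and 25.2 TPM. Of the methionine adenosyltransferases that make S-adenosylmethionine, Mat2a, the widely expressed form, was at 25.2 and 15.8 TPM. Mat1a, the form known from adult liver, was at 5.38 and 5.95 TPM with 143 and 137 counts. Mat2a was 4.68 times Mat1a in replicate 1 and 2.66 times in replicate 2. Both forms were therefore measured above 5 TPM, in a tissue sample in which the hepatocyte marker Alb had 10 and 8 counts.

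Gatm, the glycine amidinotransferase that makes the creatine precursor guanidinoacetate (chromosome 2, 122594467 to 122611303), had the highest mean of the 34 at 79.9 ± 28.7 TPM (SD, n = 2). It was at 100.2 TPM in replicate 1 and 59.6 TPM in replicate 2. In replicate 2 its level lay below that of Cbs, so its first place rests on replicate 1. Gamt, which methylates that precursor to creatine, was at 42.4 and 53.2 TPM. The ratio of Gatm to Gamt was 2.37 in replicate 1 and 1.12 in replicate 2.

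Of the branched-chain aminotransferases, the mitochondrial Bcat2 (chromosome 7, 45570153 to 45589711) was at 56.0 and 50.7 TPM. The cytosolic Bcat1 was at 0.05 and 0.28 TPM, with 2 and 5 counts, against 695 and 575 for Bcat2. These counts are close to the 3 that a count of 0 allows in a library, so no ratio of the pair is given, but Bcat2 was the more abundant in both.

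Among the genes that handle glutamate, aspartate, alanine and asparagine, Asns, the asparagine synthetase (chromosome 6, 7675169 to 7693254), was highest by the mean of the libraries, at 44.7 and 50.4 TPM. Glul, the glutamine synthetase (chromosome 1, 153899944 to 153909723), was at 61.1 TPM in replicate 1 and 21.3 TPM in replicate 2. Glul was above Asns in replicate 1 and below it in replicate 2, and its 2.87-fold range was the widest among the 31 genes that reached 1 TPM in both libraries.

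The transaminases lay lower. Got2, the mitochondrial aspartate aminotransferase, was at 10.4 and 6.59 TPM, and the cytosolic Got1 at 3.11 and 5.12 TPM. Got2 was 3.33 times Got1 in replicate 1 and 1.29 times in replicate 2. The main transcript of Got1 is a short entry of 661 bases, against 2530 for Got2. By counts Got2 had 214 and 118 and Got1 22 and 46, so the ratio of TPM depends on the length of that entry. Of the alanine aminotransferases, the mitochondrial Gpt2 was at 5.40 and 5.39 TPM and the cytosolic Gpt at 3.18 and 5.57 TPM. The ratio of Gpt2 to Gpt was 1.70 in replicate 1 and 0.968 in replicate 2, so the order of this pair was not the same in both. In the pairs of Shmt, Got, Bcat and Mat genes the order was the same in both libraries, with the mitochondrial form the higher of the first 3.

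Proline is made from glutamate by the product of Aldh18a1, pyrroline-5-carboxylate synthase, and by the reductase encoded by Pycr1, among others. Pycr1 was at 19.2 and 12.9 TPM and Aldh18a1 at 11.6 and 13.4 TPM. Their ranges over the libraries overlapped, so their order is not resolved.

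Of the 12 transporter subunits, 11 reached 1 TPM in both libraries. Slc38a3, the system N transporter SNAT3 that carries glutamine, asparagine and histidine (chromosome 9, 107650634 to 107669530), was at 53.1 and 52.1 TPM and was the highest of them in both libraries. Slc38a5, a system N transporter related to it, was at 22.8 and 20.6 TPM. Slc38a2, the system A transporter SNAT2, was at 18.5 and 13.5 TPM. Slc1a5, the sodium-dependent neutral amino acid exchanger ASCT2 (chromosome 7, 16781340 to 16798274), was at 34.8 and 47.9 TPM, below Slc3a2 in replicate 1 and above it in replicate 2.

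Slc3a2 encodes the heavy chain CD98hc, which carries several light chains to the plasma membrane. It was at 35.7 and 25.3 TPM. The sum over 6 light chain genes known to pair with it (Slc7a5, Slc7a6, Slc7a7, Slc7a8, Slc7a10 and Slc7a11) was 38.6 and 29.8 TPM, and the ratio of heavy to light chains was 0.926 and 0.850. Slc7a8, which encodes the neutral amino acid exchanger LAT2, was at 26.0 and 15.4 TPM and made up 67.3% and 51.8% of that sum. Slc7a5, the large neutral amino acid exchanger LAT1, was at 8.45 and 8.10 TPM. Slc7a8 was above Slc7a5 in both libraries.

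Slc3a1, the heavy chain rBAT of the cystine transporter known from kidney and intestine, was at 0.16 and 0.8 TPM with 3 and 13 counts, and its light chain gene Slc7a9 was listed at 0 TPM in both. Of the exon bases of Slc3a1, 26.5% are shared with the oppositely oriented Prepl, which held 200 and 115 counts. The cationic amino acid transporter genes Slc7a2 and Slc7a1 were at 9.50 and 7.30 TPM and at 3.90 and 2.89 TPM. Slc36a1, a proton-coupled transporter of small neutral amino acids, was at 3.39 and 3.96 TPM. Slc43a1, the transporter LAT3 for large neutral amino acids, was at 2.29 and 1.1 TPM and was the lowest of the 31 genes that reached 1 TPM in both libraries.

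When all 34 genes were ordered by mean TPM, the ranges of the libraries met for 28 of the 33 neighbouring pairs. Ranges can meet although a pair keeps its order in both libraries. Psat1 at 13.4 and 8.43 TPM, for example, lay above its neighbour Got2 at 10.4 and 6.59 TPM in each. The count thus does not show how many neighbours changed order. The rank correlation of TPM between the libraries was 0.960 over the 34 genes and 0.855 over the 10332 genes at 1 TPM in both. The sets are not alike, since the 34 include Shmt1, Bcat1 and Slc3a1 below 1 TPM and have a higher median TPM. The higher value is thus not a sign that the 34 genes were measured more evenly. These correlations are across genes within 1 sample, whose values share a library and its depth. By TPM 5 of the 34 genes stayed within 1.1-fold between the libraries and 5 differed by more than 2-fold.

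The next question was which of these genes differed between the libraries by more than counting error. It was answered on expected counts scaled by TMM, whose factors leave out the genes with the most extreme ratios or abundances. A ratio can thus have another size or sign than the ratio of TPM. A two-sided exact binomial test was run on each of the 12452 genes whose counts averaged 10 or more, with Benjamini-Hochberg adjustment over all of them. Calls required an adjusted p under 0.05 together with a ratio of at least 2-fold. Counting error is the only error in this test, which compares a pair of libraries.

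Of the 31 genes tested, 3 were called higher in replicate 2 and 0 lower by the exact binomial test. Over all tested genes 12.3% were called, 8.31% higher and 4% lower, so 3 of 31 is near the background. By adjusted p alone, without a size threshold, 17 of the 31 passed, against 36.2% of all tested genes. Of the 31 log2 ratios of replicate 2 over replicate 1, 17 lay above 0 and 14 below. Their median was 0.13, beside -0.01 over all tested genes. The SD of the log2 ratio was 0.55 over the 31 genes and 0.80 over all tested genes. Among genes with mean counts from 100 to 1500 it was 0.45 over 26 of the 31 and 0.56 over all 4604 tested in that range.

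Phgdh (ENSMUSG00000053398.7) had 223 counts in replicate 1 and 410 in replicate 2. Its log2 ratio was 1.36 (95% exact interval 1.12 to 1.60, adjusted p = 1.58e-29, exact binomial test). Got1 (ENSMUSG00000025190.9, chromosome 19, 43499752 to 43524605) had 22 and 46 counts and a log2 ratio of 1.53 (0.78 to 2.35, adjusted p = 1.44e-04). Gpt (ENSMUSG00000022546.4, chromosome 15, 76695716 to 76699686) had 44 and 67 counts and a log2 ratio of 1.08 (0.52 to 1.67, adjusted p = 5.95e-04). All 3 were also higher in replicate 2 by TPM. The lower bounds for Got1 and Gpt lie below a 2-fold ratio, and that for Phgdh above it.

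These calls changed with the scaling and with a joint correction for GC content and transcript length. With library totals in place of TMM every log2 ratio shifts by -0.54. Phgdh was then at 0.82, Got1 at 0.99 and Gpt at 0.55 and none of the 3 was called, while Glul at -1.25, Slc7a8 at -1.02 and Slc43a1 at -1.29 were called lower, with 23.7% of all tested genes called. With the ratio corrected for a smooth trend on transcript GC content and length, Got1 remained called at 1.29, and Phgdh at 0.86 and Gpt at 0.51 were not. The length entered for Got1 was the 661 bases of its main transcript. Over all tested genes 7.98% were called with this correction.

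The other genes of the serine, methionine and transaminase groups were not called. Psat1, with 206 and 111 counts, had a log2 ratio of -0.41 against 1.36 for Phgdh, so adjacent steps of the serine pathway lay on opposite sides of 0. Got2 at -0.37 likewise lay on the other side of 0 from Got1, and Mat2a at -0.40 from Mat1a at 0.42. With library totals Mat1a was at -0.12, on the same side as Mat2a, while Phgdh and Got1 stayed above 0. Glul had 865 and 376 counts and a log2 ratio of -0.72 (-0.90 to -0.54, adjusted p = 3.96e-15, exact binomial test), below the size threshold. Gatm, with 1458 and 803 counts, was at -0.38. Cbs, whose TPM was nearly equal in both, was at 0.43 by this scaling and at -0.11 with library totals. With the trend removed Cbs was at 0.03, Gatm at -0.10, Mat2a at -0.17 and Psat1 at -0.27.

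Among the transporters 0 of the 11 tested were called by the exact binomial test, and 4 had an adjusted p under 0.05. Slc1a5 was at 0.67 (0.52 to 0.83), Slc7a8 at -0.48, Slc3a2 at -0.20 and Slc38a3 at 0.23. With the trend removed Slc1a5 was at 0.27, Slc7a8 at -0.53, Slc3a2 at -0.52 and Slc38a3, on the other side of 0, at -0.12. Slc1a5 and its counts, 638 and 729, lay higher in replicate 2 and those of Slc7a8, 878 and 450, higher in replicate 1.

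**Figure D2:**
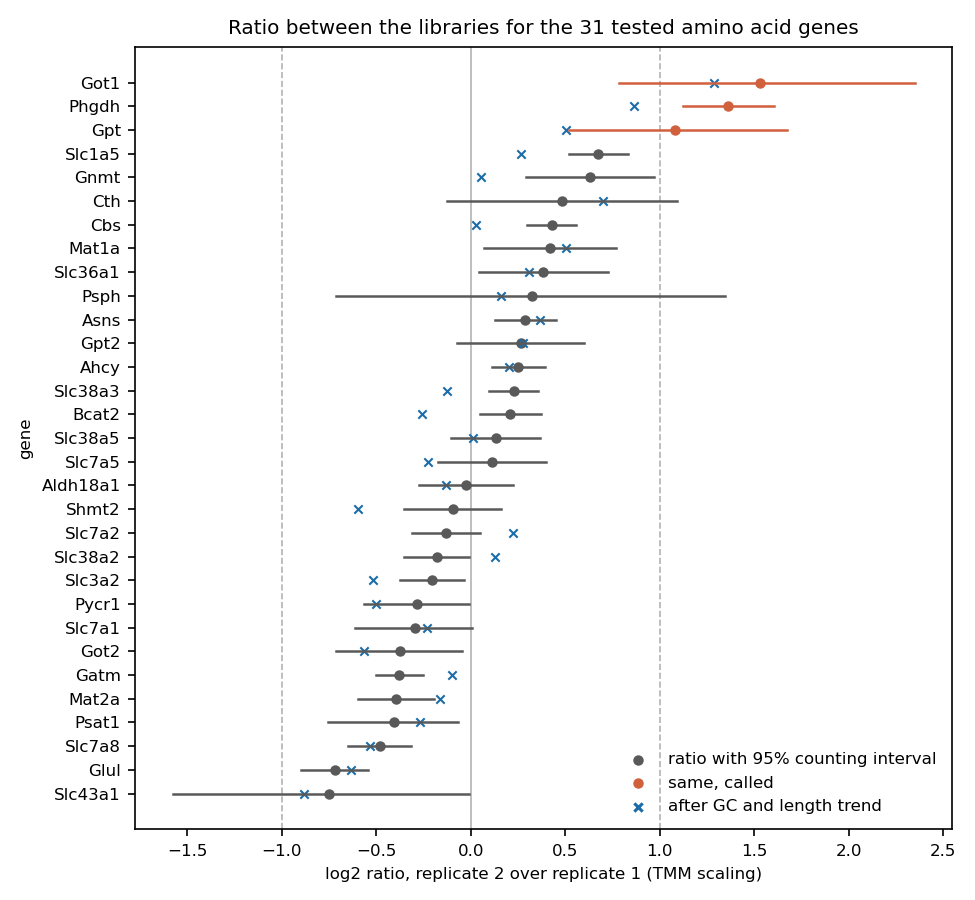
Log2 ratio of replicate 2 over replicate 1 for the 31 tested genes under TMM scaling, with bars for the 95% exact counting interval and crosses for the ratio once the GC and length trend was removed. The called genes Got1, Phgdh and Gpt stand at the top, at 1.53, 1.36 and 1.08, and of their crosses only that of Got1 lies beyond the dashed line at 1.

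The deposited transcript tables divide each gene among its annotated transcripts. The division was examined in the 21 genes with a mean of 100 or more counts and at least 2 transcripts. In 11 of them 1 transcript held 80% or more of the gene's TPM in both libraries. In 4 of the 21 the main transcript was either not protein coding, in 2, or not the same in both libraries, in the other 2. Over the 3686 genes of all kinds that met the same minimum, 35.3% did either, with 14.5% having a main transcript that is not protein coding and 27.9% a different one in each library. The share of the main transcript differed by 20 percentage points or more in 4 of the 21 and in 34.8% of all 3686.

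The main transcript of Slc1a5 was Slc1a5-202, annotated as a retained intron, at 22.6 and 29.1 TPM. It took 64.9% of the gene's TPM in replicate 1 and 60.7% in replicate 2, and 81.8% and 79.7% of its counts. The protein coding Slc1a5-201 took 9.65% and 10.4% of TPM. The transcripts are 2807 and 2741 bases long. Slc1a5-202 keeps 1 of the 8 introns of Slc1a5-201, of 71 bases at chr7:16795953-16796023 on the plus strand, between coding exons (GENCODE M21 on GRCm38). Its ends are shown because this intron sets the retained-intron entry apart from the coding one, with the first and last bases of the intron in capitals.
Slc1a5 intron start: catcaccatcctGTgagtgccaggggctgt
Slc1a5 intron end: cgctcttctcttccccAGggtcacagccac
The first 12 bases of the upper line and the last 12 of the lower line are exon. The annotated intron carries the usual GT and AG ends.

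Gnmt likewise has a retained-intron transcript, Gnmt-202, at 30.1% and 35.8% of TPM and 25.5% and 30.7% of counts, behind the protein coding Gnmt-201 at 69.9% and 64.2% of TPM. Gnmt-202 keeps 1 of the 5 introns of Gnmt-201, of 86 bases at chr17:46726183-46726268 on the minus strand, between coding exons.
Gnmt intron start: atctactataagGTtgggctgccccccaat
Gnmt intron end: cgcaacccatgccctcAGagtgacctgacc
Transcripts with these short introns were thus assigned reads in both libraries. How much of this comes from unspliced RNA was not tested.

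The main transcript of Psat1 was Psat1-204, also annotated as a retained intron, with 61.9% and 68.6% of TPM. By counts it held 49.5% and 55.7%, against 50.05% and 44.3% for the protein coding Psat1-201, so in replicate 1 the coding transcript held slightly more of the counts. Psat1-204 contains no whole intron of Psat1-201. Slc38a3-211 keeps 3 of the 15 introns of Slc38a3-209, of 204, 249 and 185 bases, and held 23.9% and 23.4% of the gene's TPM. Retained-intron transcripts together held 10% or more of TPM in both libraries in 6 of the 21 genes, and 10% or more of counts in 4. No share over all genes is given for this measure, so it does not set these genes apart.

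The genes whose top transcript was not the same in both libraries were Aldh18a1 and Slc38a3. Aldh18a1-207 held 100% of TPM in replicate 1 and 27.9% in replicate 2, where Aldh18a1-201 held 38.2% against 0% in replicate 1. These transcripts are both protein coding and 3427 and 3527 bases long. By the deposited posterior mean, which averages over possible divisions of the reads, Aldh18a1-207 held 77.5% and 23.5%. In Slc38a3 the protein coding Slc38a3-202 led in replicate 1 with 25.4%, against 12.5% in replicate 2, where Slc38a3-209 led with 40.5% against 20.4%.

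Bcat2 and Glul kept their main transcript while its share moved. Bcat2-202 held 82.3% and 55.6% of TPM. Glul-201 held 58.2% and 87.5% of TPM, with Glul-203, a protein coding entry of 379 bases, at 41.8% and 7.19%. By counts Glul-203 held only 5.58% and 0.694%, TPM being counts divided by length. Glul-203 was at 25.5 and 1.53 TPM and Glul-201 at 35.6 and 18.6 TPM. The 2.87-fold range of the gene's TPM given above thus includes that of this short entry.

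**Figure D3:**
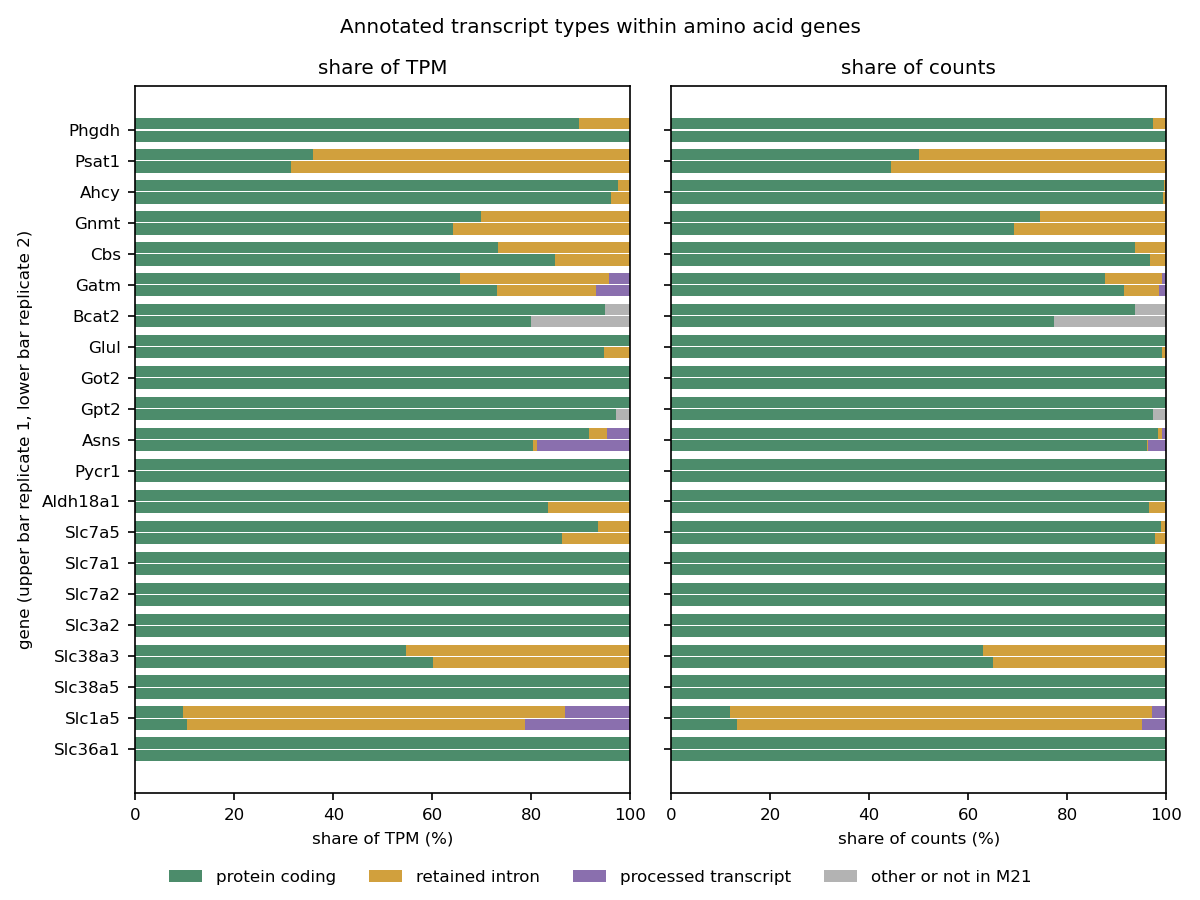
Share of TPM (left) and of counts (right), in percent, held by annotated transcript types in the 21 genes, with the upper bar of each gene for replicate 1 and the lower for replicate 2. Slc1a5 and Psat1 show the largest retained-intron shares by TPM in both libraries, and the shares of Gatm, at 30.1% and 19.9% by TPM for Gatm-202, are smaller by counts, at 11.5% and 7.15%.

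The levels were set beside 130 other amino acid genes in 8 lists, of which 91 reached 1 TPM in both libraries. Of these lists, branched-chain oxidation was detected throughout, with 12 of 12 genes, as were the 4 creatine partners. Bckdhb, a subunit of the branched-chain ketoacid dehydrogenase, was at 87.4 TPM in replicate 1 and 37.8 TPM in replicate 2. Ivd, the isovaleryl-CoA dehydrogenase, was at 37.9 and 39.5 TPM, and Bckdk, the kinase that inhibits the ketoacid dehydrogenase, at 12.5 and 16.9 TPM. The list median was 10.6 and 7.74 TPM, below both values of Bcat2, the enzyme that feeds it. Besides Gamt, the creatine list held Ckb, a creatine kinase, at 3.39 and 9.82 TPM and Ckmt1, a mitochondrial one, at 5.63 and 4.09 TPM.

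The folate and glycine cleavage list reached 1 TPM in both libraries in 9 of 14 genes. It was led by Dld, a subunit shared by several dehydrogenase complexes, at 16.03 and 9.35 TPM, the mitochondrial formyltetrahydrofolate dehydrogenase gene Aldh1l2 at 12.7 and 7.99 TPM, and Mthfd2, a mitochondrial folate enzyme, at 11.8 and 8.38 TPM. In the list of methionine salvage, polyamine and sulfur genes 16 of 21 reached 1 TPM. The polyamine genes Sat1 and Odc1 were at 29.8 and 26.8 TPM and at 24.3 and 23.6 TPM, and Adi1 of methionine salvage at 25.3 and 11.8 TPM. Adi1, with a log2 ratio of -0.82, differed more between the libraries than Sat1 at 0.24 and Odc1 at 0.23, and none of the 3 was called.

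Of the genes of glutamine, proline and the urea cycle 12 of 17 reached 1 TPM. Gls2, a glutaminase, was at 22.8 and 18.7 TPM, and Glud1, glutamate dehydrogenase, at 16.9 and 18.2 TPM. Aspg, which can break down asparagine, had 1 and 2 counts, while its synthetase gene Asns had 669 and 585. In the list of aromatic amino acid, serine and threonine breakdown 7 of 16 genes reached 1 TPM, the lowest share of the 8 lists. It was led by Gcat, of threonine breakdown, at 11.1 and 29.96 TPM, and Gstz1, of tyrosine breakdown, at 19.2 and 15.4 TPM.

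Of 34 genes listed as other amino acid transporters 21 reached 1 TPM. Slc43a3, a relative of Slc43a1, was at 43.4 and 22.9 TPM, the glycine transporter gene Slc6a9 at 32.5 and 33.2 TPM and Slc38a10 at 14.4 and 15.95 TPM. In replicate 1 only Slc38a3, among all transporters named here, lay above Slc43a3. The place of Slc43a3 in the list does not show that it carries amino acids. Of the amino acid stress response list 10 of 12 reached 1 TPM. Nupr1, a stress-induced chromatin protein, was at 3877 and 1909 TPM, and Atf4 at 60.3 and 48.0 TPM. By the mean of the libraries Atf5 came next, at 12.8 and 23.5 TPM. Nupr1 was the most abundant of the 130 genes and held most of their summed TPM, which was 4850 and 2785.

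Of the 104 tested genes of these lists, 13 were called higher in replicate 2 by the exact binomial test, beside 8.31% of all tested genes. Their median log2 ratio was 0.09. In the stress response list Cebpb was at 2.45, from 6 and 25 counts, Chac1 at 1.22, Atf5 at 1.16 and Ddit4 at 1.02, with 4 of 11 tested genes called. The median of that list was 0.07, with 7 ratios above 0 and 4 below. Nupr1, with 21904 and 8683 counts, was at -0.85, Vldlr at -0.33 and Atf4 at -0.05. The list as a whole was thus not shifted in 1 direction. In threonine breakdown Tdh was at 2.16 and Gcat at 1.69, which act one after the other. Ckb at 1.80, Bckdha at 1.34 and Prodh at 1.1 were among the other called enzymes, and Slc25a38 at 1.36, Slc7a6 at 1.15 and Slc7a4 at 1.06 the called transporters. With the GC and length trend removed, 8 genes of these lists were called, beside 7.98% of all tested genes.

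**Figure D4:**
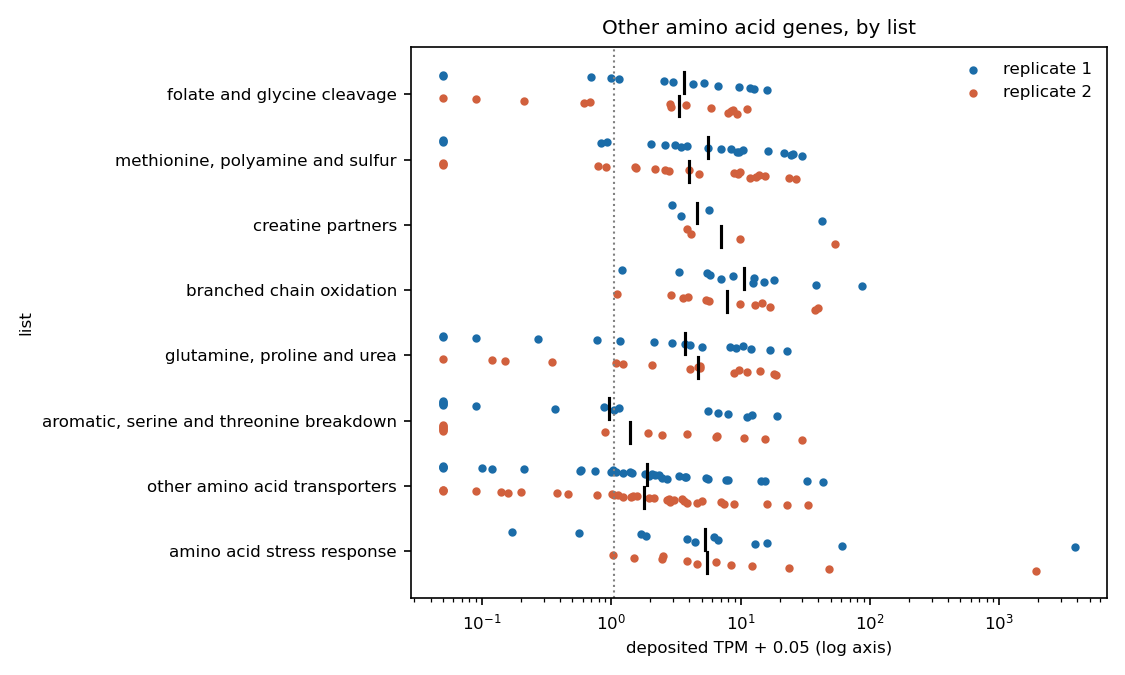
Deposited TPM, with 0.05 added so that genes at 0 can be drawn, of the 130 other amino acid genes by list on a log axis, with 1 point per gene and library and a black tick at each list median. The dotted line marks 1 TPM, the branched-chain oxidation points lie to its right in both libraries, and Nupr1 stands apart at 3877 and 1909 TPM.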

How the data were processed

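Gene and transcript tables of 2 poly(A) RNA libraries were used. Per the file headers, the deposited tables give expected counts, which are estimates and need not be whole, TPM and FPKM. The deposited posterior mean TPM, entered as a signal, and FPKM served as alternatives. Genome mm10 and annotation GENCODE M4 were used by the authors, per the deposited README files. No aligner, quantifier or strand setting was given in the sources used. For symbols and positions, GENCODE M21 (GRCm38) was joined by gene identifier and matched 42462 of 43346 gene identifiers and all 34 genes. No protein sequences were used.

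Expected counts were rounded and scaled with TMM (edgeR 4.0.16, R 4.3.3; factors 1.20 and 0.830). With 1 library a side edgeR's quasi-likelihood test has no residual degrees of freedom, so an exact binomial test was used, with 0.5 added to counts for ratios. Intervals are Clopper-Pearson at 95% and cover counting error only. A count of 0 allows up to 3 counts, or 0.318 and 0.306 CPM. GC content was found for 99.0% of tested genes and its trend fitted with mgcv 1.9.3. The test was checked on simulated counts. Other tools were scipy 1.17.1, pandas 2.3.3 and numpy 2.4.6 in Python 3.11.15. Alternatives covered scaling, including DESeq2 1.42.0 size factors, filters, pseudocounts, the trend, assumed dispersions, units and leaving out a library.

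The genes, the 8 lists and the 13 marker lists were chosen with earlier results of these data known. Named genes are all 34, the 3 most abundant and every called gene of each list, except a few that are not reported here, and transcripts that are not protein coding, differ between libraries or move by 20 points. Gnmt, Gatm, Aspg, Slc7a9 and the shared exons were added after their values were seen.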

Additional observations from a re-analysis of the deposited data

How the results depend on the processing

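With 1 group of 2 libraries, no group could be tested for a library that stands apart, and depth limits Shmt1, Bcat1 and Slc3a1 most, at 13 counts or fewer. No paired analysis was possible because the libraries form 1 group. Rescaling TPM without mitochondrial genes, Gm42418, Gm26917 and Lars2 raised the median of the 34 genes to 22.8 TPM and their share to 0.114%. At a minimum of 5 TPM 42 of the 130 other genes were detected. With library totals the median log2 ratio of the tested genes was -0.40, and 12 of the 31 genes turned from above to below 0. Of these, Ahcy at -0.28, Asns at -0.25, Bcat2 at -0.33 and Slc38a3 at -0.31 had an adjusted p under 0.05 both ways. The trend on GC content and length left 1 of the 31 genes and 8 of the other genes called. Over all tested genes 7.98% were then called. Under this trend 5 of the 31 changed sign: Bcat2 at -0.26, Slc7a5 at -0.23, Slc38a3 at -0.12, Slc38a2 at 0.13 and Slc7a2 at 0.22. An edgeR exact test at an assumed dispersion of 0.1 called 0 of the 31 and 0 of the other genes. In all it called 45 of 12452. At 0.01 it called 3 of the 31, beside 9.85% of all tested genes. Totals without the dominant genes left Gpt at 0.95, not called. With no count minimum Slc3a1 was called as well, and at a mean of 50 counts Got1 was not tested. At a mean of 300 counts, 2 genes had a main transcript that was not protein coding or differed between libraries. DESeq2 size factors, upper quartile factors, posterior mean counts and both pseudocounts kept the calls of Phgdh, Got1 and Gpt.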
